A study of Mus musculus with 3 samples.

Results

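Natural killer (NK) cells were taken from single-cell RNA sequencing of mouse kidneys that had been injured with folic acid (FA), a vitamin that damages the tubules at high dose. The samples were kidneys of 2 Aoah-/- mice and 1 WT mouse, all FA-treated and collected on day 14. The mice were 6 to 8 weeks old per the labels. Aoah-/- mice lack acyloxyacyl hydrolase, an enzyme that removes fatty acyl chains from lipids, in every tissue, since the knockout is global. No kidney without FA was analysed here, so every group shares the injury. Kidneys were perfused and digested and their erythrocytes lysed before capture. Each mouse gave 1 library, so the Aoah-/- group had n = 2 and the WT group n = 1, and genotype cannot be told apart from the individual WT mouse.

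A cell was taken as an NK cell when it held a UMI (unique molecular identifier, a count of 1 captured RNA molecule) of Ncr1 or Klrb1c and of at least 1 of Gzma, Prf1, Klre1 and Nkg7, and no UMI of Cd3d, Cd3e or Cd3g. It could hold at most 2 UMIs of Cd79a, C1qa and Lyz2 together, and at most 2 of Lrp2, Slc34a1 and Slc12a1 together, which mark B cells, macrophages and tubule cells. Cells needed at least 1672 UMIs, at least 200 genes and at most 50% of UMIs from mitochondrial genes. The cells were thus chosen by their measured UMIs of these genes. In all, 369 NK cells were found among 48404 cells that met the quality limits, or 0.762% of them, and among 73281 deposited cell barcodes. Aoah-/- mouse 2 gave 112 NK cells, Aoah-/- mouse 3 gave 119 and the WT mouse gave 138. Since these genes chose the cells, their levels are a description.

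NK cells are innate lymphocytes that kill infected or stressed cells without a rearranged antigen receptor. They weigh signals from activating and inhibitory receptors, many of which are lectin-like proteins of the Klr family, against the MHC class I molecules of the target. Killing is done by perforin, which opens the target's membrane, and by granzymes, which enter and cleave proteins inside it. As they mature, mouse NK cells lose CD27 and gain CD11b (encoded by Itgam), and they secrete interferon-gamma and chemokines that draw other leukocytes into inflamed tissue such as the injured kidney.

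Where 3 values stand in a row, the first pair belongs to Aoah-/- mice 2 and 3 and the last to the WT mouse. The libraries held 167222984, 161015021 and 158551992 UMIs. The median NK cell held 2721.5, 2952 and 2819.5 UMIs and 1209.5, 1285 and 1215.5 genes, so depth per NK cell was much alike. The lowest UMI total of a deposited barcode was 500, 1672 and 500, which is why 1 minimum was applied to all. Of the cell barcodes, 172, 171 and 176 were shared by pairs of libraries, and 0 barcodes belonged to NK cells of more than 1 library.

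NK cells made up a smaller share of the cells in both Aoah-/- kidneys than in the WT kidney. Their share was 0.725% (95% exact Clopper-Pearson interval 0.598 to 0.872) and 0.604% (0.501 to 0.723) in the Aoah-/- mice, and 1.04% (0.874 to 1.23) in the WT mouse. The Aoah-/- mean was 0.665% ± 0.0856 (SD, n = 2), which was 0.375 percentage points below the WT value, and both Aoah-/- intervals lay under the WT interval. Among cells with a UMI of Ptprc, the pan-leukocyte gene for CD45, the NK share was 1.93%, 1.67% and 4.17% in the same order. Among NK and T cells together it was 7.39%, 6.27% and 12.4%. The intervals and the counting errors given further on cover counting only, not the spread between mice, and genotype was not tested, since the WT group held 1 mouse.

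**Figure D1:**
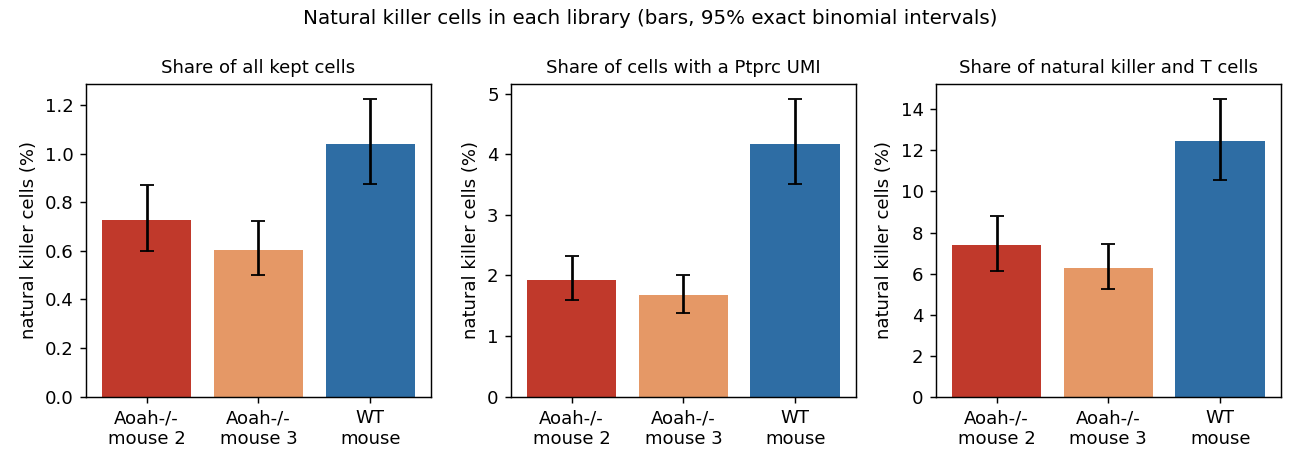
Share of NK cells in each library (y axes, percent) among all kept cells, among cells with a Ptprc UMI and among NK and T cells. Bars are shares and error bars 95% exact binomial intervals. The WT mouse is highest on each denominator, at 1.04%, 4.17% and 12.4%.

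The comparison with T cells depended on which T cells were counted. There were 12.9, 11.5 and 37.1 NK cells per 100 CD8 T cells, and 21.0, 16.1 and 23.04 per 100 other T cells. CD8 T cells, gated by at least 2 Cd3 UMIs, a Cd8a or Cd8b1 UMI and no UMI of Cd4, Ncr1 or Klrb1c, were 5.63%, 5.27% and 2.80% of the kept cells. Other T cells, with no Cd8a or Cd8b1 UMI, were 3.46%, 3.76% and 4.51%. Thus the WT mouse had about as many NK cells per other T cell as Aoah-/- mouse 2, whereas its count per CD8 T cell was far above that of both Aoah-/- mice. Each share also depends on how many tubule cells and leukocytes survived digestion, whose part in the result was not tested.

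Aoah itself was rare in NK cells. Its level, in CPM (UMIs scaled to the same total for each cell class and library), was 12.9 (5 UMIs, 95% Poisson interval 4.18 to 30.1) and 14.0 (6 UMIs, 5.15 to 30.5) in the Aoah-/- mice and 16.8 in the WT mouse (8 UMIs, 7.25 to 33.1). These NK values were not distinguishable at this depth. In tubule cells Aoah was at 10.5, 9.05 and 23.7 CPM, and over all deposited barcodes at 6.06, 5.68 and 15.3 CPM, so the WT mouse was highest in each. The part of Aoah that the allele lacks was not given in the sources used here, and 3′ UMIs from outside a deleted part do not check the genotype. Aoah was higher in NK cells than in T cells. The log2 difference was 4.86 (SE 0.88) against CD8 T cells and 3.38 (SE 0.74) against other T cells, with adjusted p = 0.00165 and adjusted p = 0.00565 in edgeR's quasi-likelihood test. CD8 T cells held 1.09, 0 and 0 CPM and other T cells 1.08, 0.381 and 2.80 CPM.

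**Figure D2:**
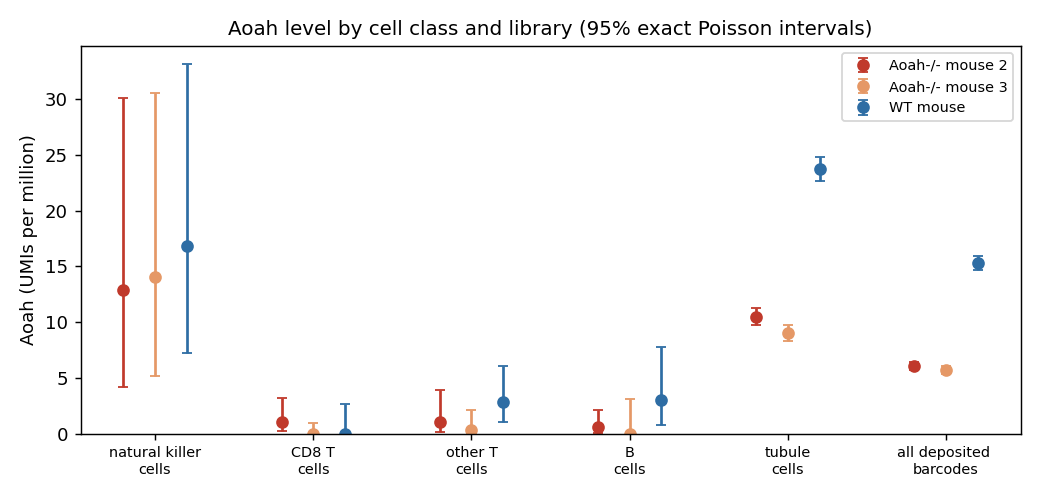
Aoah level (CPM, with 95% Poisson intervals) in NK cells, T cells, B cells and tubule cells of each library. The NK values lie between 12.9 and 16.8 CPM with overlapping intervals, while tubule cells of the WT mouse, at 23.7 CPM, lie above those of both Aoah-/- mice.

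The genes of the rule described the cells as follows. Gzma, which encodes granzyme A, was at 8664, 9745 and 8821 CPM. Prf1, which encodes perforin, was at 268, 358 and 344 CPM, and Nkg7, a granule membrane protein, at 2510.1, 2821 and 2939 CPM. Ncr1, the gene of the activating receptor NKp46, was at 515, 526 and 640.2 CPM, and Klrb1c, the gene of the receptor NK1.1, at 585, 582 and 527 CPM. Klre1, a lectin-like receptor, was at 634, 743 and 701 CPM. Ncr1 was detected in 314 NK cells and Klrb1c in 301, and 246 cells (66.7%) held both. Of the 4 cytotoxic genes, 168 cells held all, 141 held 3, 33 held 2 and 27 held 1.

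Ncr1 lies at chr7:4337724-4345164 on the plus strand and Gzma at chr13:113093825-113100981 on the minus strand (mm10). Their promoters are shown because these genes define the cells, as the 250 bases before each start from RefSeq (GRCm38.p6), Ncr1 at chr7:4337474-4337723 and Gzma at chr13:113100982-113101231, each read 5′ to 3′ on the gene's strand.
Ncr1: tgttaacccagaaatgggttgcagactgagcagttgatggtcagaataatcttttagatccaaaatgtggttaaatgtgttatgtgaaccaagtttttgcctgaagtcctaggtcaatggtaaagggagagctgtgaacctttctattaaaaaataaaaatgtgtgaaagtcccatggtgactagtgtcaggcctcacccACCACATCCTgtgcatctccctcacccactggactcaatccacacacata
Gzma: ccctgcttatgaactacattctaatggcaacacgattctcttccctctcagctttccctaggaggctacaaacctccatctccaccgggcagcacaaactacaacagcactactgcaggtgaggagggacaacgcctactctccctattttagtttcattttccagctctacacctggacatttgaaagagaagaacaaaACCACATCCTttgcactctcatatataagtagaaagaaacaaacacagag
The capitals mark the longest run of letters that both promoters share, ACCACATCCT, which ends 41 bases before the start in each. It was found after the sequences were seen, by a search on both strands. The run stood in the promoters of 19 of 27025 genes (0.0703%), in 1 of 508 genes (0.197%) that were higher in NK cells than in CD8 T cells and in 1 of 477 (0.210%) that were lower. Its first letters alone, ACCACA, had been searched before it and stood in 15.9% of all promoters, 12.8% of those of genes tested, 11.8% of those of genes higher in NK cells than in CD8 T cells and 15.5% of those of genes lower. The letters are a description of these windows and nothing about a factor was drawn from them.

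The label was checked against genes that the rule did not use. When each cell was thinned to 1672 UMIs, Fcer1g, which encodes the signalling adaptor FcR gamma, was detected in 95.5%, 93.3% and 97.1% of NK cells, against 3.91%, 5.20% and 3.76% of CD8 T cells. Tyrobp, which encodes the adaptor DAP12, was detected in 90.2%, 91.6% and 95.7% of NK cells. Eomes, a transcription factor of NK and memory CD8 T cells, was detected in 29.5%, 31.1% and 31.2%. Cd5, Cd4 and Trat1, which belong to T cells, had 0 UMIs in all 369 cells, whose UMIs summed to 388029, 427802 and 476387. Of the 17 T cell identity genes in the files, 3 (Cd5, Trat1 and Dapl1) were at 0, and genes that both lineages use were present, with 136 UMIs of Thy1, 97 of Cd247 and 75 of Lat and with Ms4a4b the most abundant at 887, 956 and 1163 CPM. Free RNA was present too: Kap, an abundant proximal tubule transcript, was detected in 82.1%, 85.7% and 86.2% of thinned NK cells and in 80.8%, 81.7% and 82.3% of thinned CD8 T cells. For the gate gene Gzma the share was 87.5%, 85.7% and 85.5% of thinned NK cells, against 0.757%, 0.959% and 0.630% of B cells, which should lack it.

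Cells just outside the limits gave the following values, with no test. The 22 cells with exactly 1 Cd3 UMI held 7157 CPM of Gzma and 314 CPM of Klra8, beside 9080 and 367 CPM over the NK cells pooled, and had 0 UMIs of Cd5. The 103 cells with at least 2 Cd3 UMIs held less Gzma (2588 CPM) and Klra8 (78.3 CPM), and they held Cd5 (50.4 CPM) and Cd8b1 (179 CPM). The 57 cells with more than 2 tubule UMIs held 3529 CPM of Gzma, and the 16 cells with more than 2 B cell or macrophage UMIs held 7654 CPM. Over the mitochondrial limit were 8 cells, with 3429 CPM of Gzma. The 45 NK cells with fewer than 2090 UMIs, closest to the minimum, held 10300.3 CPM of Gzma and 488 CPM of Klra8.

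To set the NK profile against its closest neighbours, the UMIs of each class were summed per library and NK cells were compared with CD8 T cells and with other T cells in 1 fit with the library as a block (n = 3 mice per class). The gates already separate these classes, so genes that travel with the gate genes are not independent of them, and the 18 gate genes were left out. Of 9741 genes tested, 645 (6.62%) were higher in NK cells than in CD8 T cells and 650 (6.67%) were lower, at an adjusted p under 0.05 over all genes (edgeR's quasi-likelihood test, Benjamini-Hochberg). Against other T cells 728 (7.47%) were higher and 781 (8.02%) lower. Both comparisons use the same NK sums. The counts of each gene list against T cells below are to be read beside these shares over all genes. The genes with the most UMIs in NK cells, apart from ribosomal, mitochondrial and rule genes, included Tmsb4x, an actin-binding peptide, at a mean of 20207 CPM, Malat1, a nuclear RNA, at 18087 CPM, Ccl5, a chemokine, at 14932 CPM, Actb, the cytoskeletal actin, at 6858 CPM, and AW112010 at 3354 CPM. These are 3′ UMI counts, which count molecules and are not divided by transcript length.

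NK receptors and their adaptors were higher as a group. Of 25 receptor genes tested, 18 were higher in NK cells than in CD8 T cells, 4 were lower and 3 did not pass, with a median log2 difference of 3.11 beside 0.0042 over all genes tested. Against other T cells 22 were higher, 1 was lower and 2 did not pass (median 3.97, all genes 0.0011). Tyrobp was at 2283, 2763 and 2557 CPM in NK cells and at 48.7, 46.6 and 42.6 CPM in CD8 T cells, with no overlap between the classes. Its log2 difference was 5.73 (SE 0.11, adjusted p = 5.28e-13 in edgeR). Fcer1g was at 1953, 2080.4 and 2292 CPM in NK cells against 35.2, 70.3 and 69.3 CPM in CD8 T cells, a log2 difference of 5.19 (adjusted p = 8.08e-11 in edgeR). Through these adaptors, activating receptors without signalling tails of their own reach the cell's kinases.

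The Ly49 receptors, encoded by Klra genes and mostly inhibitory receptors for MHC class I, were higher in NK cells than in each T cell class for 6 of the 8 members tested, while Klra5 and Klra6 did not pass. Klra4 was at 546, 482 and 640.2 CPM in NK cells and at 0.363, 0.808 and 0 CPM in CD8 T cells, a log2 difference of 9.84 (SE 0.42, adjusted p = 2.86e-09 in edgeR). Klra8, which encodes the activating receptor Ly49H in some strains, was at 263, 323 and 491 CPM in NK cells against 0, 1.08 and 0 CPM in CD8 T cells (log2 9.14). Other members were found in CD8 T cells as well. Klra3 was at 134, 201 and 246 CPM in NK cells against 1.82, 74.3 and 1.44 CPM in CD8 T cells, so Aoah-/- mouse 3 stood apart, and Klra9 was at 387, 341 and 262 CPM against 12.7, 28.5 and 19.5 CPM (log2 3.96). Klra genes are near-identical copies whose reads the counting could have split, so the share of each member is uncertain. Lectin-like receptors of other families followed: Klri2 differed by 7.84 on the log2 scale, Klrb1b by 7.34 and Klrb1a by 5.86 against CD8 T cells.

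Receptors that CD8 T cells also carry differed less. Klrk1, the gene of the activating receptor NKG2D, was 1.70 higher on the log2 scale than in CD8 T cells (adjusted p = 1.10e-05 in edgeR) and Klrd1, the gene of CD94, was 1.61 higher (2.76e-07). Klrc1, the gene of the inhibitory receptor NKG2A, did not pass against CD8 T cells (log2 0.64, adjusted p = 0.109) and was 2.78 higher than in other T cells. The 4 receptor genes that were lower than in CD8 T cells were Cd226, Cd160, Cd96 and Hcst, the last of which encodes the adaptor of NKG2D, at 479, 507 and 405 CPM in NK cells and 655, 727 and 612 CPM in CD8 T cells. Most of these lectin-like genes lie together in the NK gene complex, where 23 genes named Klr stretched over chr6:128609227-130386874 (mm10). Of the 16 tested there, 13 were higher in NK cells than in CD8 T cells and 0 were lower, with Klra5, Klra6 and Klrc1 not passing, and 14 were higher than in other T cells.

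**Figure D3:**
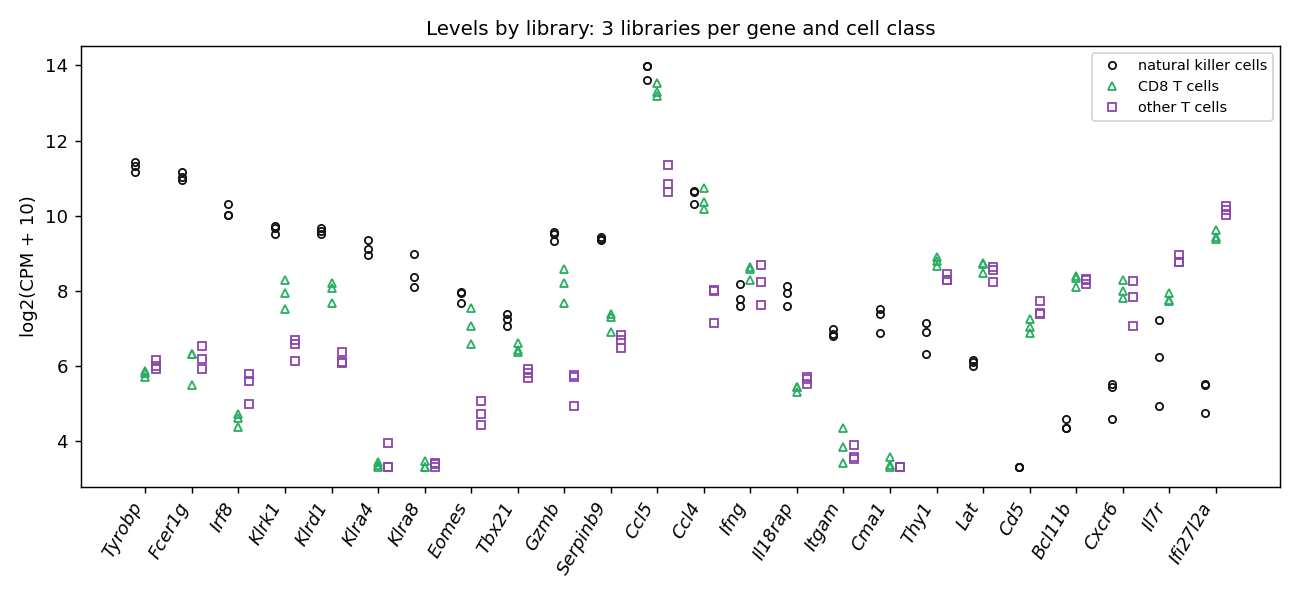
Level of selected genes, as log2(CPM + 10), in NK cells, CD8 T cells and other T cells, with 1 symbol per library. For Tyrobp, Fcer1g, Irf8, Klra4 and Klra8 the 3 NK symbols lie above both T cell classes, and for Cd5, Bcl11b and Ifi27l2a below them.

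Genes of the cytotoxic granule differed from CD8 T cells in both directions. Of 14 tested besides the rule genes, 5 were higher in NK cells than in CD8 T cells, 3 were lower and 6 did not pass (median log2 0.20). Against other T cells 7 were higher, 2 were lower and 5 did not pass (median 0.71). Gzmb, which encodes granzyme B, was at 626, 748 and 722 CPM in NK cells and 193, 376 and 285 CPM in CD8 T cells, and was higher by 1.30 on the log2 scale (adjusted p = 0.000188 in edgeR). Gzmk, which encodes granzyme K, went the other way, at 5.15, 11.7 and 8.40 CPM in NK cells and 247, 223 and 159.5 CPM in CD8 T cells (log2 −4.63, adjusted p = 2.96e-08 in edgeR). Serpinb9, which encodes an inhibitor that shields the killer cell from its own granzyme B, was higher by 2.21. The mast cell protease gene Cma1 had 108, 173 and 155 CPM in NK cells and 0 UMIs in other T cells, which made it at least 324-fold higher there (floor of 3 counts over the class). The serpin gene Serpinb9b was at least 181-fold higher than in other T cells by the same floor, and Khdc1a, with 0 UMIs in CD8 T cells, was at least 162-fold higher than in those. Fasl, which encodes the death ligand, was at 268, 248 and 249.8 CPM and did not pass against CD8 T cells (adjusted p = 0.133 in edgeR).

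Of 20 transcription factor genes tested, 8 were higher in NK cells than in CD8 T cells, 4 were lower and 8 did not pass (median log2 0.26), and against other T cells 8 were higher, 8 lower and 4 did not pass. Irf8, an interferon regulatory factor needed for NK function, was at 1265, 1036 and 1022 CPM in NK cells and at 14.5, 16.2 and 10.8 CPM in CD8 T cells (log2 6.20, SE 0.18, adjusted p = 5.05e-11 in edgeR). Eomes and Tbx21, the T-box factors of cytotoxic lymphocytes, were higher by 0.79 and 0.78 against CD8 T cells and by 3.73 and 1.64 against other T cells. Eomes was at 193, 238 and 235 CPM in NK cells and 177, 124 and 85.2 CPM in CD8 T cells, so the gap was narrow in Aoah-/- mouse 2. Zeb2, a factor of terminal NK maturation, was higher by 1.27 and Klf2, which keeps cells in circulation, by 1.05 against CD8 T cells. Bcl11b, which fixes the T cell lineage, was at 10.3, 14.0 and 10.5 CPM in NK cells against 328, 313 and 264 CPM in CD8 T cells (log2 −4.72, adjusted p = 2.45e-10 in edgeR).

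T cell identity genes were lower in NK cells, on whose T cell side the gates require Cd3 UMIs. Of 16 tested, 13 were lower than in CD8 T cells, 0 were higher and 3 did not pass (median log2 −1.80), and 14 were lower than in other T cells (median −2.40), where Ms4a4b alone was higher. With 0 UMIs in NK cells, Cd5, a brake on T cell receptor signals, was at least 55.4-fold lower than in CD8 T cells and at least 75.5-fold lower than in other T cells. Cd6 and Themis, also of the T cell receptor pathway, were at 0, 2.34 and 0 CPM and at 2.58, 0 and 0 CPM in NK cells. The muscle actinin gene Actn2, with 0 UMIs, was at least 21.1-fold lower than in CD8 T cells, and Gm8369 was lower by 7.57 on the log2 scale. Thy1, the surface protein CD90, and Lat, a scaffold of T cell receptor signalling, were lower than in CD8 T cells by 2.10 and 2.79 but were present at 69.6, 110 and 130.1 CPM and at 59.3, 53.8 and 60.9 CPM. Against other T cells, Tnfrsf4 (the costimulatory receptor OX40), Cd40lg (the helper ligand), Il17a (the cytokine of type 17 cells) and Izumo1r (a surface marker of regulatory T cells) had 0 UMIs in NK cells and were at least 152-fold, 50.3-fold, 47.3-fold and 44.5-fold lower.

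Among cytokine and chemokine genes, 3 of 12 were higher than in CD8 T cells, 3 were lower and 6 did not pass. Ccl5, the chemokine RANTES, was at 16223, 16122 and 12450.0 CPM in NK cells and 11932, 10027 and 9355 CPM in CD8 T cells (log2 0.48, adjusted p = 0.000649 in edgeR). Ccl4, a chemokine gene whose product attracts immune cells, was at 1590.1, 1608 and 1249 CPM and overlapped with CD8 T cells (log2 0.058, adjusted p = 0.863), while it was 2.88 higher than in other T cells. Xcl1, which recruits cross-presenting dendritic cells, was at 415, 608 and 779 CPM and did not pass against CD8 T cells (adjusted p = 0.106 in edgeR). Ifng, the gene of interferon-gamma, was at 183, 283 and 212 CPM in NK cells, below the 304, 376 and 385 CPM of CD8 T cells (log2 −0.71, adjusted p = 0.0061 in edgeR). Against other T cells, where 4 of the 12 were higher and 5 lower, Ifng did not pass (log2 −0.33, adjusted p = 0.192 in edgeR). Ltb, the gene of lymphotoxin beta, was lower than in both T cell classes, by 2.21 and 2.59 on the log2 scale.

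Cytokine receptor and signalling genes differed in both directions. Of 19 tested, 7 were higher, 6 lower and 6 did not pass against CD8 T cells (median log2 0.012), and 7 were higher and 7 lower than in other T cells (median −0.65). Il18rap, a subunit of the interleukin 18 receptor, was at 237, 271 and 183 CPM in NK cells against 33.1, 33.1 and 29.6 CPM in CD8 T cells (log2 2.80, adjusted p = 2.20e-08 in edgeR). Its partner Il18r1 was higher by 2.04, the interleukin 12 receptor gene Il12rb2 by 3.08, and Il2rb, the chain shared by the interleukin 2 and 15 receptors, by 1.51. The interleukin 15 receptor gene Il15ra and the interleukin 21 receptor gene Il21r were lower than in CD8 T cells, and Il2rg and Il12rb1 did not pass. Il7r, which encodes the interleukin 7 receptor, was lower by 1.54 and varied widely between libraries, at 20.6, 65.5 and 141 CPM.

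NK cells also differed from T cells in genes of homing and residence. Of 21 homing and adhesion genes, 10 were higher and 6 lower than in CD8 T cells (median log2 0.40), and 11 were higher and 8 lower than in other T cells (median 0.70). S1pr5, the exit receptor of NK cells, was higher than in CD8 T cells by 3.14 on the log2 scale. Itgam was at 101, 105 and 115 CPM and higher by 4.23. Cxcr6 and Cd69, genes of tissue-resident lymphocytes, were lower than in CD8 T cells by 3.28 and 1.93. Of 12 genes listed for tissue-resident group 1 innate lymphoid cells (ILCs), a related lineage, 7 were lower than in CD8 T cells and 0 higher, and 8 were lower than in other T cells and 0 higher. T cells hold some of these genes too, with Rora at 323, 367 and 442 CPM in other T cells. These counts therefore do not show whether ILCs were among the gated cells. A UMI of Cxcr6 or Itga1 was found in 8.93%, 7.56% and 11.6% of the NK cells. Of 6 ILC2 and ILC3 genes tested, 1 was lower than in CD8 T cells and 6 were lower than in other T cells. Among the 10 of that list in the files, Il23r, Il17a, Il22, Ccr6, Il5 and Il13 had 0 UMIs in NK cells.

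Interferon-induced and MHC class I genes were mostly lower in NK cells than in T cells. Of 15 interferon-induced genes, 10 were lower than in CD8 T cells, 0 higher and 5 not passing (median log2 −1.20), and 11 were lower than in other T cells (median −1.45). Ifi27l2a, which type I interferon induces, was at 36.1, 35.1 and 16.8 CPM in NK cells against 662, 774 and 678 CPM in CD8 T cells (log2 −4.65, SE 0.15, adjusted p = 1.04e-10 in edgeR). Isg15, a ubiquitin-like modifier, was lower by 1.60, and Irf7 did not pass (adjusted p = 0.784 in edgeR). Of 9 MHC class I genes, 7 were lower than in CD8 T cells and 0 higher. The sizes were small there, with B2m, the invariant chain, at 2087, 2232 and 2093 CPM against 2472, 2635 and 2558 CPM (log2 −0.30, adjusted p = 0.00274 in edgeR). Of 7 inhibitory checkpoint genes, 3 were lower than in CD8 T cells and 4 did not pass. Among the 3 was Pdcd1, the gene of PD-1, at 7.73, 7.01 and 0 CPM against 134, 89.1 and 134 CPM. Of 14 immediate early and heat shock genes, 1 was higher, 3 were lower and 10 did not pass (median log2 −0.12). The 1 higher was a share near the 6.62% higher over all genes.

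Cell cycle genes were compared as well. Of 14, Stmn1, a microtubule regulator, was higher in NK cells than in CD8 T cells (log2 0.76, adjusted p = 0.00231 in edgeR), with values that overlapped between classes (87.6, 264 and 283 CPM against 62.5, 123 and 180.5 CPM), and the other 13 did not pass, a share near the 6.62% higher over all genes. At least 2 of 8 cycle genes were detected in 2.68%, 4.202% and 4.35% of thinned NK cells (intervals from 0.556 to 9.53) and in 2.64%, 2.99% and 3.76% of thinned CD8 T cells.

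**Figure D4:**
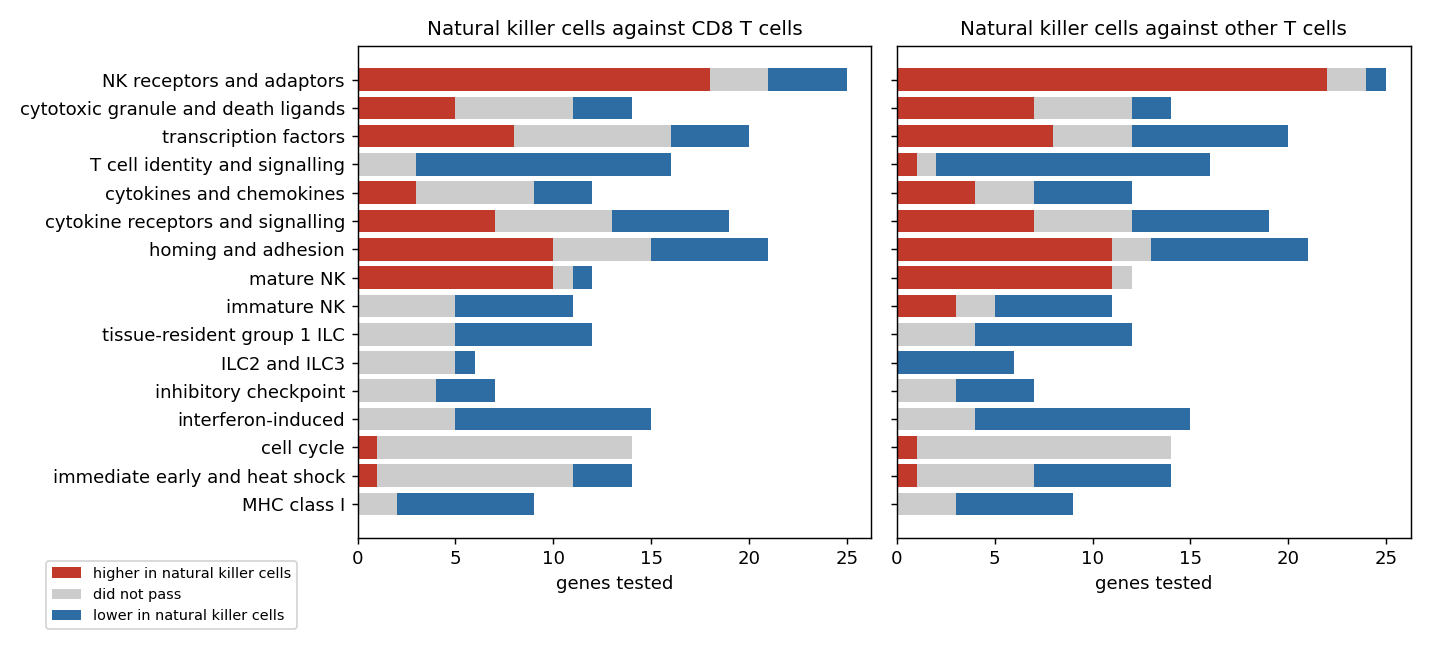
Genes of each list that were higher in NK cells, did not pass, or were lower (x axis, number of genes tested), against CD8 T cells (left) and other T cells (right). The receptor list has 18 and 22 genes higher, and the interferon-induced list has 0 higher in both.

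Markers of other kidney cells were measured as well, to show what else the cells or droplets held. Sums are over all measured genes of a list, those of the gates included. Of 8 proximal tubule genes tested, 0 differed from CD8 T cells, and the 10 of the list summed to 3152, 3633 and 2387 CPM in NK cells, led by Kap. Other tubule genes summed to 242, 257 and 69.3 CPM, led by Umod, and 1 of 6, Wfdc15b, was higher than in CD8 T cells. Macrophage and monocyte genes summed to 276, 257 and 166 CPM, led by Cd74, with 2 of 6 lower than in CD8 T cells and 0 higher. Endothelial genes summed to 85.0, 175 and 52.5 CPM and neutrophil genes to 38.7, 35.1 and 4.198 CPM, with Retnlg at 0. Platelet genes summed to 10.3, 4.68 and 14.7 CPM, with Ppbp and Gp9 at 0. B cell genes summed to 701, 44.4 and 10.5 CPM. In Aoah-/- mouse 2 they were led by Ly6d (675 CPM), with 262 UMIs in 10 cells and 103 in a single cell, while Ly6d was at 2.34 and 2.10 CPM in the others and Ebf1 led in Aoah-/- mouse 3 (37.4 CPM). Ly6d was the 1 of 3 B cell genes tested that was called higher than in either T cell class, and it was above T cells in 1 library only.

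Erythroid genes separated the libraries most. They summed to 111, 14261 and 38721 CPM in NK cells, led by Hbb-bs, a beta-globin gene, at 64.4, 7557 and 19875 CPM. Cells with at least 20 haemoglobin UMIs numbered 0, 2 and 6, and they held 98.6% of the haemoglobin UMIs of NK cells in each library that had any such cell. A single cell of the WT mouse held 5586 of them. Thus the erythroid signal came from few NK barcodes, and 0 of 5 erythroid genes passed the test against either T cell class.

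NK cells varied among themselves along the maturation axis. Itgam without Cd27 was detected in 23, 26 and 30 NK cells, and Cd27 without Itgam in 29, 25 and 27. Both genes were found in 9, 5 and 6 cells and neither in 51, 63 and 75, so most cells could not be placed at this depth. From all UMIs, without thinning, the Itgam-only share was 20.5%, 21.8% and 21.7%, with intervals that overlapped. The UMI sums of the Itgam-only and Cd27-only cells of each library were compared, with the library as a block. Of 1306 genes tested, 70 (5.36%) were called, 45 (3.45%) higher and 25 (1.91%) lower in Itgam-only cells. Gzma, Prf1, Nkg7 and Klrb1c, which chose the cells, were among the 45, and nothing was read from their calls. The count of 70 rested on few cells and was 8 without Aoah-/- mouse 3, 35 without the WT mouse and 51 without Aoah-/- mouse 2, and DESeq2 called 11.

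Genes listed for mature NK cells were higher in the Itgam-only cells. Of 9 tested, all 9 were higher (median log2 2.05, all genes 0.016), among them Zeb2 by 2.15, Cma1 by 2.56, S1pr5 by 2.19, the surface protein gene Ly6c2 by 2.05 and the inhibitory receptor gene Klrg1 by 1.62. Of 8 granule genes besides the rule genes, Gzmb and Serpinb9 were higher and 6 did not pass. As a description, the rule gene Gzma was at 14989, 15348 and 14470 CPM in Itgam-only cells and at 4592, 7207 and 5150.3 CPM in Cd27-only cells. Gzmb was at 877, 1226 and 1279.8 CPM against 142, 376 and 356 CPM (log2 2.06, adjusted p = 3.49e-17 in edgeR). Ndufa10, a subunit of respiratory complex I, was higher by 1.59. Of 18 receptor genes, 7 were higher and 0 lower and 11 did not pass, among them Klra8 and Klra4 (adjusted p = 0.0658 and adjusted p = 0.288 in edgeR).

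Of 7 cytokine and chemokine genes, Ccl5 was higher in Itgam-only cells, Xcl1 and Ltb were lower, and the other 4 did not pass, Ccl3 and Ccl4 among them. Ccl5 was at 31731, 27113 and 19282 CPM in Itgam-only cells and at 10664, 10217 and 10625 CPM in Cd27-only cells (log2 1.34, adjusted p = 5.98e-16 in edgeR). Cd27-only cells held more Xcl1 and tubulin RNA. Xcl1 was at 28.3, 233 and 275 CPM in Itgam-only cells and at 560.4, 1168 and 1497 CPM in Cd27-only cells (log2 −2.52, adjusted p = 3.36e-20 in edgeR). Of 5 genes listed for immature NK cells, 4 were lower in Itgam-only cells, namely Xcl1, Ltb (log2 −1.59), Emb, which encodes an adhesion protein (log2 −1.75), and Cd7 (log2 −0.92). Stmn1 was at 42.4, 81.7 and 42.3 CPM against 109, 604 and 356 CPM (log2 −2.58), and the tubulin genes Tuba1b and Tubb5 were lower by 1.46 and 1.31. Mif, the macrophage migration inhibitory factor that binds CD74, was at 56.6, 187 and 52.9 CPM in Itgam-only cells and 268, 337 and 241 CPM in Cd27-only cells (log2 −1.48, adjusted p = 0.00158 in edgeR). The kinase inhibitor gene Pebp1 was lower by 1.21. Hbb-bs also passed, although only the WT mouse had a large difference (40637 against 304 CPM, beside 70.7 against 25.1 and 128 against 129 CPM), so a gene could pass this test on 1 library. Of the 15 genes named for this split by their fold and threshold, apart from Gzma, it was Gzmb, Xcl1 and Zeb2 that passed whichever mouse was left out. The other 12 missed the threshold without Aoah-/- mouse 3, from adjusted p = 0.0752 for Cma1 to adjusted p = 0.726 for Tubb5 in edgeR. Without the WT mouse, S1pr5, Ndufa10, Emb and Ltb missed it (adjusted p = 0.244 to 0.424 in edgeR), and without Aoah-/- mouse 2 it was Klrg1, Ndufa10, Mif and Pebp1 (adjusted p = 0.0852 to 0.256 in edgeR).

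**Figure D5:**
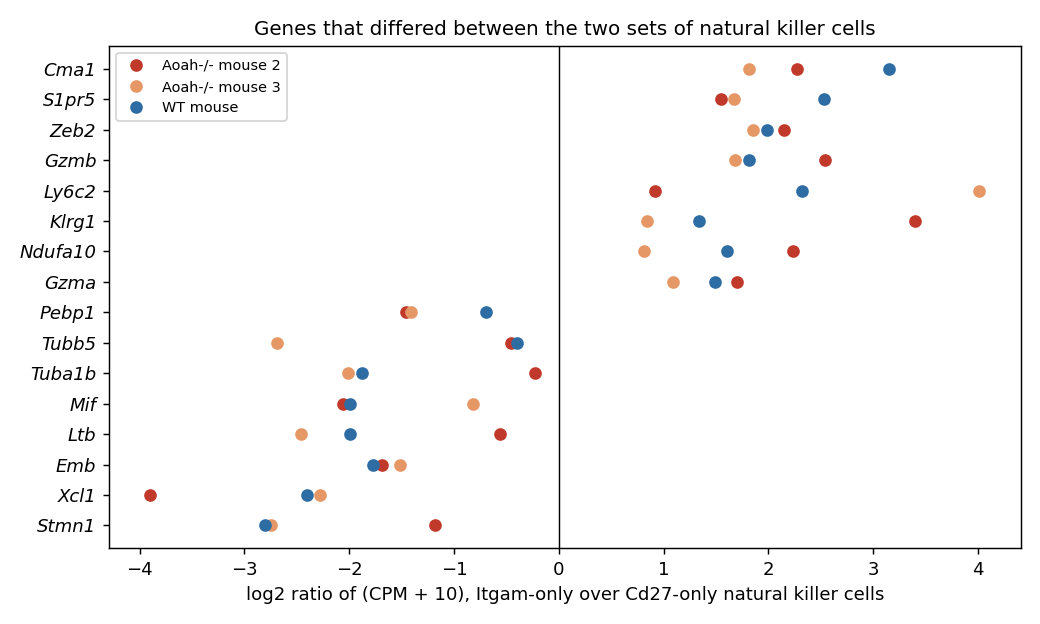
Log2 ratio of (CPM + 10) in Itgam-only over Cd27-only NK cells (x axis) for the genes that differed most (y axis), with 1 point per library. The 3 points of Cma1, Zeb2, S1pr5 and Gzmb lie above 0 and those of Xcl1 and Stmn1 below it. Gzma, a gene of the rule, is shown as a description.

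Between Aoah-/- and WT mice, genes past 2-fold in NK cells included Mt1 and Clu, higher in the Aoah-/- mean, and haemoglobin genes, Il7r, Rora and Emb, lower. Of 3047 genes that reached 50 CPM in either group, 24 (0.788%) were at least 2-fold higher in the Aoah-/- mean and 20 (0.656%) at least 2-fold lower, with 10 CPM added, and with the distance in CPM of each Aoah-/- mouse to the WT mouse, in the same direction, larger than that between the Aoah-/- mice. With those distances on the log2 scale, a choice made after seeing the data, 34 were higher and 11 lower, 35 of them the same genes, and Il7r and the haemoglobin genes were not counted. The genes that met the first criterion, with distances in CPM, are called past 2-fold below and were 1.44% of the genes in either direction. With 1 WT mouse these are values and not tests. The median log2 ratio of all genes was −0.0032. Of 23 receptor genes at that level, 0 were past 2-fold higher and 1, Cd96, was lower (median −0.19). The granule genes at that level included Gzma, Prf1 and Nkg7, which chose the cells, and nothing was read from those. Of 12 granule genes, 7 cytokine genes, 14 homing genes and 11 genes of mature NK cells, 0 met this criterion in either direction. Likewise 0 of 8 interferon-induced, 0 of 8 cell cycle and 0 of 9 MHC class I genes met it. Ly6a (79.9, 196 and 56.7 CPM) and Mki67 (25.8, 103 and 155 CPM) passed 2-fold in the mean and failed the distance condition. The cell cycle list had a median of −0.60 and summed to 899, 2186 and 2326 CPM in NK cells. Counts of 0 or 1 in lists this short do not stand apart from the 1.44% over all genes.

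The genes past 2-fold higher included Tpm3-rs7, a tropomyosin-related copy, at 97.9, 53.8 and 2.10 CPM. Gm8730, a further copy gene, was at 165, 147 and 31.5 CPM. Both showed the same pattern in CD8 T cells, at 47.9, 52.2 and 1.44 CPM and at 235, 206 and 41.1 CPM. Reads of such copies may be split with the parent gene. Mt1, which encodes the metal-binding metallothionein 1, was at 142, 122 and 16.8 CPM in NK cells. It was at 77.4, 81.9 and 105 CPM in CD8 T cells, at 67.4, 91.6 and 51.9 CPM in other T cells and at 296, 353 and 150 CPM in tubule cells. The small heat shock gene Hspb1 was at 101, 56.1 and 10.5 CPM, while it ran the other way in CD8 T cells (17.4, 44.4 and 48.4 CPM) and in other T cells (18.9, 42.3 and 61.7 CPM). App, the amyloid precursor gene, was at 101, 81.8 and 14.7 CPM in NK cells and at 459, 497 and 419 CPM in tubule cells. Clu, the gene of the injury-induced chaperone clusterin, was at 85.0, 72.5 and 14.7 CPM in NK cells. Clu had the same order in CD8 T cells (162, 130 and 36.1 CPM) and not in other T cells (90.0, 135 and 251 CPM). Of the 8 proximal tubule genes at that level 1, Pck1, was past 2-fold higher, and of 2 other tubule genes 1, Wfdc15b, was. The other, Umod, was at 82.5, 147 and 31.5 CPM (log2 ratio 1.59). It failed only the distance condition in CPM and was counted with distances on the log2 scale. Spp1, Pck1 and Keg1, also past 2-fold higher, were far higher in tubule cells than in NK cells. Spp1 was at 245, 323 and 96.6 CPM in NK cells and at 2568, 2835 and 1439 CPM in tubule cells. Pck1 was at 121, 98.2 and 31.5 CPM against 1759, 1214 and 899 CPM. Keg1 was at 69.6, 63.1 and 21.0 CPM against 1241, 842 and 901 CPM. CD8 T cells, too, were higher in both Aoah-/- mice for Spp1 (436, 399 and 125 CPM), Pck1 (114, 66.0 and 28.9 CPM) and Keg1 (71.2, 41.7 and 27.4 CPM). Other T cells had the same direction for Pck1 (111, 76.3 and 36.9 CPM) and Keg1 (70.1, 56.1 and 34.6 CPM). For Spp1 they did not (272, 419 and 539 CPM). The summed tubule levels given above were also higher in both Aoah-/- mice than in the WT mouse, and their part in the result was not tested.

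Genes past 2-fold lower in the Aoah-/- mean included the haemoglobin genes Hbb-bs, Hbb-bt, Hba-a1 and Hba-a2, which came from the few erythroid-marked barcodes. Bpgm, an enzyme of erythrocyte glycolysis, was at 18.0, 25.7 and 79.8 CPM, and its log2 ratio of −1.49 became 0.16 when the cells with at least 20 haemoglobin UMIs were left out. Il7r was at 20.6, 65.5 and 141 CPM (log2 ratio −1.51). Beside 0.656% lower over all genes, the lists that held genes past 2-fold lower gave the following counts: of 6 group 1 ILC genes at that level 3 were past 2-fold lower (median −1.001), of 8 immature NK genes 2 were (median −0.49), of 11 cytokine receptor genes 1 was (median 0.068), of 15 transcription factor genes 1 was (median −0.040), and of 9 T cell genes 1, Icos, was (median −0.27). These lists share members, as Il7r stands in the ILC, immature and cytokine receptor lists and Rora in the ILC and transcription factor lists. Il7r was not counted with distances on the log2 scale. The group 1 ILC genes were Il7r, Rora, a nuclear receptor of innate lymphoid cells, at 36.1, 32.7 and 111 CPM, and Gpr183, an oxysterol receptor that guides migration, at 18.0, 16.4 and 60.9 CPM. Emb, of the immature list, was at 82.5, 77.1 and 216 CPM. In CD8 T cells, too, both Aoah-/- mice were below the WT mouse, with Rora at 106, 121 and 179 CPM and Gpr183 at 157, 163 and 234 CPM. Emb was at 98.8, 101 and 172 CPM there and Il7r at 206, 203 and 236 CPM. Other T cells had the same direction for these genes, with Rora at 323, 367 and 442 CPM and Emb at 222, 207 and 259 CPM. The 16 NK cells of the WT mouse with a UMI of Cxcr6 or Itga1 held 684 CPM of Il7r, 401 CPM of Rora, 317 CPM of Gpr183 and 501 CPM of Emb. The 10 and 9 such cells of the Aoah-/- mice held 0 and 130 CPM of Il7r, 80.1 and 78.0 CPM of Rora, 0 and 26.0 CPM of Gpr183, and 26.7 and 52.0 CPM of Emb. In the NK cells with neither UMI, Gpr183 was at 19.97, 15.4 and 24.0 CPM, Il7r at 22.8, 59.1 and 62.4 CPM, Rora at 31.4, 28.3 and 69.6 CPM and Emb at 88.4, 79.6 and 175 CPM.

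Also among the 20 past 2-fold lower were the following genes of DNA replication and chromatin, picked after their values were seen. They form no fixed list and were not tested as a group. Of the 8 genes of the fixed cell cycle list at that level, 0 were past 2-fold by the same criterion. The DNA ligase gene Lig1 was at 18.0, 14.0 and 50.4 CPM in NK cells and at 37.0, 36.1 and 34.7 CPM in CD8 T cells. Rrm1, a subunit of ribonucleotide reductase, was at 18.0, 21.0 and 52.5 CPM. The condensin gene Smc2 was at 20.6, 56.1 and 113 CPM, and the linker histone gene Hist1h1b at 61.9, 173 and 294 CPM. Hist1h1e and Hist1h3c, also histone genes, were at 106, 215 and 334 CPM and at 15.5, 37.4 and 65.1 CPM. In Smc2 and the 3 histone genes the Aoah-/- mice lay far apart, and these 4 were not counted with distances on the log2 scale. In CD8 T cells, unlike Lig1, most of these genes were also lower in both Aoah-/- mice than in the WT mouse. There Rrm1 was at 30.1, 19.9 and 38.3 CPM and Smc2 at 43.6, 56.0 and 66.4 CPM. Hist1h1b was at 63.9, 98.8 and 214 CPM and Hist1h1e at 56.3, 70.0 and 128 CPM. Hist1h3c was at 14.2, 26.7 and 26.7 CPM.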

How the data were processed

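Kidney cells of 2 Aoah-/- mice and 1 WT mouse were profiled by droplet single-cell RNA sequencing, 1 library per mouse. For each called cell, the deposited values are whole-number UMI counts of 27998 genes, which the authors did not normalize. The submitters' processing notes name Cell Ranger 3.1.0, STAR, Seurat 4.2.0 and mm10, while the matrix headers name Cell Ranger 6.1.2. No deposited cell annotation was used.

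NK cells were gated by the rule in the text. Doublets were handled only by the limits on UMIs of other lineages, and no doublet caller was run. UMI counts were summed per library and class and tested with edgeR 4.0.16 (quasi-likelihood, TMM, filterByExpr, library as a block, Benjamini-Hochberg at 0.05), with R 4.3.3. Each mouse gave all classes, so the library paired the sums. DESeq2 1.42.0 was an alternative. Python 3.11.15, numpy 2.4.6, scipy 1.17.1, pandas 2.3.3 and matplotlib 3.10.9 were used elsewhere. The fits were tested on simulated data.

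Genotype was compared by values only, as log2 ratios with 10 CPM added. Shares of cells with a UMI were taken after thinning each cell to 1672 UMIs where the text says thinned, and otherwise from all UMIs. Intervals are 95% exact binomial or Poisson.

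Genes were named by a rule: the genes of the gates, Aoah, the members of each list with the highest level or on which a comparison turned, the 15 genes with the highest level, the 10 largest rises and 5 largest falls against each T cell class, the 8 largest each way in the maturation split (same direction in all 3 libraries, at least 50 CPM) and the 6 largest each way by genotype. Of the listed genes, 5 were not found in the files. The members and lists were chosen with earlier results of these data known.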

Additional observations from a re-analysis of the deposited data

Results flagged for a closer look

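Barcodes with fewer than 1672 UMIs were left out of every comparison, and some held the NK genes. There, 27 cells met the rest of the rule. Aoah-/- mouse 2 had 14 and the WT mouse 13. Aoah-/- mouse 3, whose deposited barcodes start at that minimum, had 0. The 27 cells were at 11632 CPM of Gzma and 530 CPM of Klra8, beside 9080 and 367 CPM in the NK cells used, with a median of 1466 UMIs. Without the minimum, the NK share was 0.590% and 0.604% in the Aoah-/- mice and 0.830% in the WT mouse.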

How the results depend on the processing

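The NK share stayed lower in the Aoah-/- mean than in the WT mouse under every alternative tried. The difference of −0.375 percentage points was −0.504 with a 20% mitochondrial limit, −0.233 with no UMI minimum, −0.267 with no UMI of another lineage allowed, −0.286 with Ncr1 required, −2.37 among cells with a Ptprc UMI and, chosen after seeing the data, −5.61 among NK and T cells. Leaving out 1 Aoah-/- mouse gave −0.436 to −0.315.

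Against CD8 T cells, 1295 genes were called in all, 699 with no UMI of another lineage allowed, 925 by DESeq2, 1552 with no filter on low counts and 815 to 879 with 1 mouse left out. Against other T cells the counts were 1509, 867, 1124, 1804 and 953 to 1145. Between Itgam-only and Cd27-only cells, 70 genes were called, 11 by DESeq2 (9 higher and 2 lower), 5 with no UMI of another lineage allowed, 10 after thinning (5 higher and 5 lower) and 8 to 51 with 1 mouse left out. Without the filter on low counts it was 82, with 36 higher and 46 lower. With no replicate block the counts were 1088, 1275 and 25 (21 higher and 4 lower), where the pairing is that each mouse gave every class. No named gene reversed in these fits. Of 389 values of named genes against T cells, 4 lost their call, Il17a with no block (adjusted p = 0.0548 in edgeR) and, with a robust fit chosen after seeing the data, Il17a, Klra3 and Tnfrsf4 (adjusted p = 0.0602 to 0.155 in edgeR). Of 152 in the split, 44 did, none of them of Gzmb or Xcl1.

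No paired analysis by genotype was possible with 1 WT mouse, and the labels do not tie the replicate numbers to a litter, batch or day. By genotype, 44 genes were past 2-fold, 164 with no UMI of another lineage allowed, 101 after thinning and 101 to 168 with 1 Aoah-/- mouse left out. The Aoah log2 ratio of −0.19 was 0.22 with no UMI of another lineage allowed, −0.30 with 1 CPM added, −0.10 with no UMI minimum, −0.089 after thinning, −0.24 with TMM scaling, −0.13 without the cells rich in haemoglobin and −0.23 to −0.16 with 1 mouse left out. Of 72 such values of the 8 genes named for the genotype comparison besides haemoglobin, whose spread between the Aoah-/- mice exceeded their ratio, 51 moved by less than the spread between those mice, 20 moved further and 1 changed sign, that of Bpgm, which went to 0.16 without the cells rich in haemoglobin. The causes were not tested. The Cxcr6 or Itga1 comparison was not run as a test, since each library had under 20 such cells.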

Other observations

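Many NK cells carried more than 1 kind of Ly49 receptor RNA. After thinning, any of 11 Klra genes was detected in 75.9%, 70.6% and 74.6% of NK cells (in the order of the report), and at least 2 of them in 48.2%, 47.1% and 53.6%. From all UMIs of the 369 cells, without thinning, Klra8 was detected in 54.1% of the cells with Klra4 and in 26.7% of those without, and in 24.6% of the cells with Klrc1 against 43.8% of those without. Deeper cells detect more genes, and near-identical Klra copies can share reads, so these shares are values only.

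NK cells with a UMI of Cxcr6 or Itga1, genes of tissue-resident group 1 innate lymphoid cells, numbered 10, 9 and 16 (8.93%, 7.56% and 11.6%). Pooled over libraries, they held 7.36 CPM of Klra8 against 409 CPM in the other NK cells (1 UMI, Poisson interval 0.186 to 41.0), 66.3 against 242 CPM of Eomes, 3114 against 9780.5 CPM of Gzma and 5315 against 15913 CPM of Ccl5. They held more Il7r (339 against 49.3 CPM), Rora (221 against 44.1 CPM), Tmem176b (280 against 59.7 CPM), Xcl1 (1163 against 548 CPM) and Areg (147 against 10.4 CPM), which encodes the growth factor amphiregulin. The Il7r, Areg and Rora of these cells came mostly from the WT mouse, at 684, 317 and 401 CPM, beside 0, 26.7 and 80.1 CPM in Aoah-/- mouse 2 and 129.96, 0 and 78.0 CPM in Aoah-/- mouse 3. Klra8, Gzma and Ccl5 were lower in these cells in all 3 libraries. These genes were chosen after their values were seen, the cells were too few for a test, and their values are given as a description.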
